A study of Mus musculus with 6 samples.

Results

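The resting microRNA (miRNA) profile of cultured vascular smooth muscle cells (VSMCs) was described from the 3 untreated control arrays of a series of 6. The members are the arrays that the labels call control, and every one of the 1078 reporters (probes named for a mouse miRNA) on each array was used. The source tissue was abdominal aorta, taken from C57BL/6 mice at 8 weeks of age, and the cells had gone through several passages when harvested. The 3 cultures were grown and harvested independently per the series' design text, received no treatment and carry no stated genetic change. The other 3 arrays, from cells given TNF-α, were not used. The sources used here do not give the number of animals per culture or the purity of the cells. Because there is 1 group, no test was made, and error is the SD over the 3 cultures.

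A miRNA is cut from a hairpin RNA, and either side of the hairpin, called an arm, can yield a mature strand. The strand pairs with messenger RNAs mainly through its seed, bases 2 to 8 counted from the 5′ end, and lowers their output, so miRNAs with the same seed have overlapping targets. VSMCs form the contractile wall of arteries. They can leave that state for a proliferating one after injury or in culture, and miR-143 and miR-145 are known for favouring the contractile state while miR-21, miR-221 and miR-222 are known for favouring growth.

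Mature sequences are given here because brightness is described below by miRNA, family and arm. Shown are the brightest reporters with a RefSeq sequence (GRCm38.p6), down to miR-214, and the pair of miR-221 and miR-222. No sequence was found for some bright reporters, miR-709, miR-3960, miR-23b and miR-5107 among them. Sequences are in lower case with the seed in capitals. Reporters carry the older names of the files, in which an asterisk marks the arm once taken to be the minor product.
miR-21: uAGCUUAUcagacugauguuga
miR-125b-5p: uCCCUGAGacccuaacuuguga
miR-5126: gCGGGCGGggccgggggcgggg
miR-149*: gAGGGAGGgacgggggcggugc
miR-29a: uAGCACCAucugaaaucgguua
miR-23a: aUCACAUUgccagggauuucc
miR-24: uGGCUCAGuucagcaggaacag
miR-199a-3p: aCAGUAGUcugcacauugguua
miR-214: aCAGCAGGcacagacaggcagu
miR-221: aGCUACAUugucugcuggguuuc
miR-222: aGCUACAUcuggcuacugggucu
In this build miR-21 lies at chr11:86584120-86584141 on the minus strand, inside the span of the gene Vmp1. The miR-29a sequence lies at chr6:31062673-31062694 on the minus strand. The sequence of miR-214 is at chr1:162223438-162223459 on the plus strand, inside the span of Dnm3, which also holds 1 of the 2 hairpins that give miR-199a-3p. The miR-149* strand is at chr1:92850421-92850442, inside the span of Gpc1, and miR-5126 is at chr1:84695890-84695911, inside the span of Dner, both on the plus strand. Every base of miR-5126 is G or C, and 81.8% of miR-149* is, against 36.4% of miR-21.

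Each value is the median density of a reporter, the brightness of its spots on a linear scale with the background left in. A reporter was called clear of background when its density passed a limit on all 3 arrays, and the limit was the most common density of the array, its dim peak, plus 3 SD of the values below that peak. The dim peak was at 76.8, 79.3 and 71.0 on control replicates 1, 2 and 3, and the limit at 115, 121 and 113. Densities ran from 45.7 to 42503 over the 3 arrays. Of the 1078 reporters, 214 were clear on all 3 arrays, a background share of 19.9%, while 18 passed on 2 arrays, 25 on 1 array and 821 on none. The share of reporters that were above the limit on 1 or more of the 3 arrays was 23.8%. The number above the limit was 240, 238 and 225 on the 3 arrays.

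**Figure D1:**
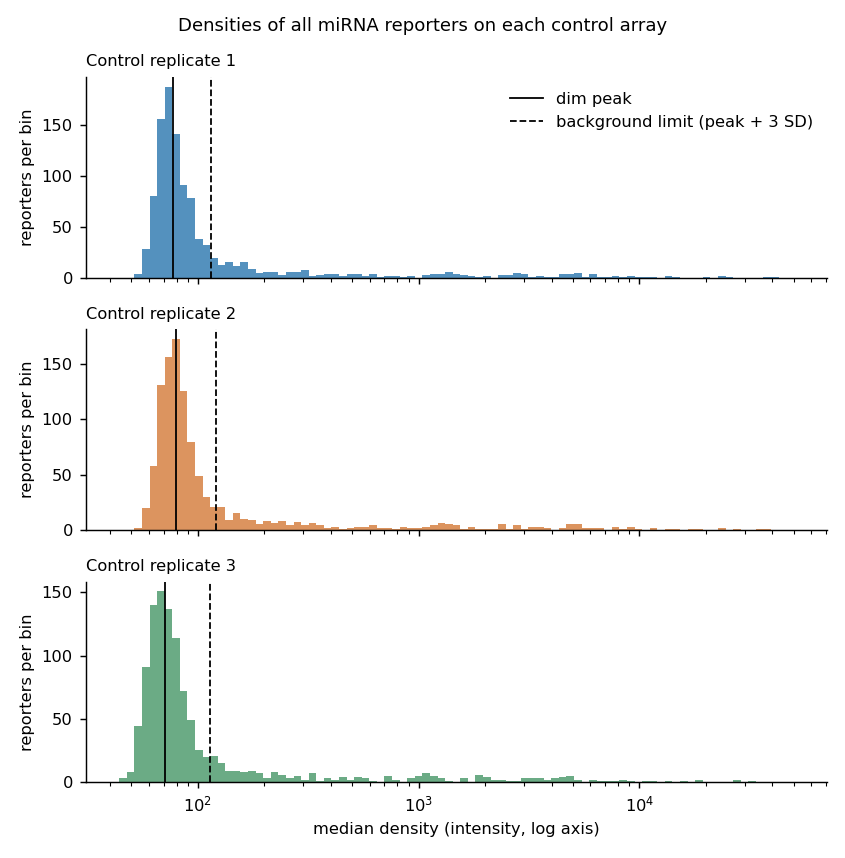
Number of reporters per bin (vertical axis) by median density (intensity, log axis) on each of the 3 control arrays, with a solid line at the dim peak and a dashed line at the background limit. Most reporters lie in 1 dim peak near 76.8, 79.3 and 71.0, and a long tail of bright reporters runs to the right of each limit.

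The clear reporters whose lowest array came nearest to its limit were miR-678, miR-1968, miR-322*, miR-296-5p and miR-1249. Among reporters that passed on no array, those whose highest array came nearest to its limit were miR-27b*, miR-214*, miR-196b*, miR-3059* and miR-500, with means of 113, 112, 108, 107 and 105. No gap in density separated the clear reporters from the rest, so their count follows from the limit chosen. A minimum of 32 on each array after normexp background correction gave 369 in place of 214.

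Density depends on how well a probe binds and how well its miRNA is labelled as well as on how much miRNA there is. Ranks below therefore order spot brightness and not molecules, and the shares of summed density given for groups of reporters are shares of brightness. Replicate 3 was also dimmer as a whole, at 0.883 times the mean array, against 1.06 and 1.07 for replicates 1 and 2. Until the cultures are compared after scaling, a reporter called lowest or highest on an array is so in unscaled density, which includes this array-wide difference.

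The brightest reporters on the control arrays were miR-21, a miRNA known to be abundant in cultured and injured smooth muscle, and miR-709. The density of miR-21 was 37154, 38414 and 33613 on replicates 1, 2 and 3 (36394 ± 2489, SD, n = 3). For miR-709 it was 42503, 34213 and 28279 (34998 ± 7144, SD, n = 3). Replicate 1 alone put miR-709 above miR-21, and the ranges of the 2 reporters overlapped, so their order is not separated by the spread. Next came miR-125b-5p, which belongs to a family related to lin-4 of worms, at 23781, 27723 and 27099 (26201 ± 2119, SD, n = 3). Unlike most bright reporters, it was lowest on replicate 1. After it stood miR-5126 with 25105, 24161 and 18821, miR-3960 with 22982, 23117 and 18274, and miR-149* with 19654, 18518 and 15574. These 3 reporters were each lowest on replicate 3, and miR-3960 and miR-149* held ranks 5 and 6 on every array.

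Below these came several miRNAs known from mesenchymal cells. Reporters of miR-23, miR-24 and miR-27, whose hairpins are made as joint transcripts from a pair of loci, were among the brightest 20. Densities of miR-23b were 14103, 16824 and 13302 (14743 ± 1846, SD, n = 3), and those of miR-23a were 11954, 14455 and 11006 (12472 ± 1782, SD, n = 3). For miR-24 they were 9689, 11900 and 9372 (10320 ± 1377, SD, n = 3), and for miR-27b 6103, 7511 and 6019 (6544 ± 838, SD, n = 3). All 4 were highest on replicate 2. Densities of miR-29a, known for lowering collagen and other matrix messages, were 14744, 13833 and 11967 (13515 ± 1415, SD, n = 3). The miR-199a and miR-214 pair, made from 1 transcript and known from connective tissue cells, stood together at ranks 13 and 14 of the mean. Densities of miR-199a-3p were 9364, 9368 and 8281 (9004 ± 626, SD, n = 3), and those of miR-214 were 8622, 9021 and 7668 (8437 ± 695, SD, n = 3). Both were lowest on replicate 3 in unscaled density, and miR-199a-3p was above miR-214 on each array. After the scaling of arrays described below, both were highest on replicate 3, with deviations of 0.062 and 0.046 (log2).

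The remaining places among the brightest 20 went to miR-5107, miR-5109, miR-466f-3p, miR-467b*, miR-5112, miR-26a and miR-466h-3p. Densities of miR-26a, a miRNA reported in smooth muscle growth, were 6598, 8647 and 4545 (6597 ± 2051, SD, n = 3), which put it at rank 19, 16 and 25. On replicate 3 the deposited standard deviation within the array was 41.9% of its density, against 10.6% and 1.28% on replicates 1 and 2. That low value thus comes from the array on which its own measurement scattered most, and the part of this scatter in its spread was not tested.

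**Figure D2:**
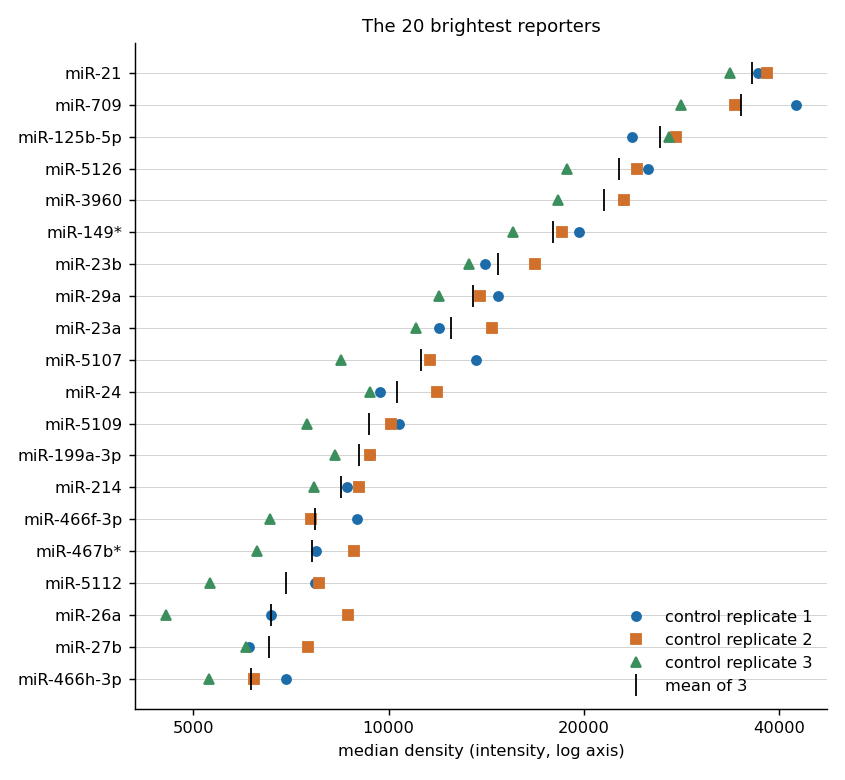
Median density (intensity, log axis) of the 20 reporters with the highest mean density, with a marker for each of the 3 control replicates and a bar at their mean. Neighbouring reporters overlap along most of the list, miR-709 spans 28279 to 42503, and replicate 3 is lowest for all but miR-125b-5p.

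Neighbouring reporters in this list could mostly not be ordered. Of the 20 pairs of neighbours from rank 1 to rank 21, 6 kept their order on all 3 arrays, among them miR-709 over miR-125b-5p, miR-149* over miR-23b and miR-199a-3p over miR-214. Membership was steadier than order: the same 5 reporters were the brightest 5 on each array, 9 of 10 stayed among the brightest 10, 17 of 20 among the brightest 20 and 46 of 50 among the brightest 50.

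Brightness was concentrated in few reporters. With the dim peak subtracted from each density (the net density), the brightest reporter of the clear 214 held 7.47% of their sum, the brightest 5 held 29.0%, and the brightest 20 held 59.2 ± 0.126% (SD, n = 3). The brightest 50 held 83.9% and the brightest 100 held 96.4%. The other clear reporters thus lie at the dim end of the scale.

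The labelled cell type was set beside marker miRNAs, on lists chosen with earlier results of these data known. Both smooth muscle markers were clear: miR-145 at 5370, 5632 and 4451 (5151 ± 620, SD, n = 3) and miR-143 at 3566, 3918 and 3247 (3577 ± 336, SD, n = 3). Each stood far above the limit of every array, with the lowest value on replicate 3. Their asterisk arms, miR-143* and miR-145*, are not on this list and passed on no array. All 4 listed mesenchymal markers, miR-199a-5p, miR-199a-3p, miR-199b* and miR-214, were clear as well. The other arm of the miR-214 hairpin, miR-214*, is not on this list and passed on no array (mean 112). Fibroblasts also express miR-143, miR-145 and the mesenchymal markers, so these reporters do not separate the 2 cell types.

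Most markers of other cells were not clear, although miR-290-5p, miR-128 and miR-182 had means 2.63, 2.34 and 1.61 times the mean limit. None of the 12 blood cell markers was clear, and the brightest, miR-150*, had a mean of 105. The myeloid miRNA miR-223 was at 79.7, 88.3 and 71.7, and the red cell miRNA miR-451 at 60.2, 72.4 and 56.5, all below the limits. Of the endothelial pair, miR-126-3p was just clear at 119, 157 and 134 and miR-126-5p was not, at a mean of 65.0. Epithelial markers were clear for 1 of 18 (miR-182, mean 187), liver and gut markers for 1 of 8 (miR-192, mean 133), neural markers for 1 of 15 (miR-128, mean 272), and embryonic stem cell markers for 1 of 24 (miR-290-5p, mean 307). These shares are below the background of 19.9% save the endothelial 1 of 2. The lists are unlike in their share of asterisk arms, which were seldom clear. These fill 5 of 12 places on the blood cell list, 7 of 18 on the epithelial and 4 of 8 on the liver and gut. On the neural list they fill 6 of 15, on the embryonic stem cell list 8 of 24, and on the smooth muscle list none. None of those asterisk arms was clear. Without them, the liver and gut list had 1 of 4 clear, the blood cell list 0 of 7 and the epithelial list 1 of 11. The neural list then had 1 of 9 and the embryonic stem cell list 1 of 16. Of all reporters without an asterisk, 24.7% were clear. In bulk RNA, fewer cells of a type and less RNA per cell cannot be told apart.

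Striated muscle miRNAs were clear for 2 of 15 reporters (13.3%, against 19.9% of all reporters). The skeletal muscle miRNA miR-206 was at 277, 256 and 237, above each limit, and miR-208a-5p, from a cardiac myosin gene, was just clear at 122, 128 and 121. The best known members were not: miR-1a was at 69.3, 68.5 and 65.9, and miR-133a at 92.5, 92.2 and 87.7. The reporter of the other miR-1a arm, miR-1a-2*, was at 73.7 and 74.4 on replicates 1 and 2 but at 237 on replicate 3. It therefore passed the limit on 1 array only.

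Among miRNAs with known roles in VSMC state, 3 of 12 reporters on the contractile list were clear (25%), and 8 of 15 on the proliferative list (53.3%), where 19.9% of all reporters were. The median density was 84.8 on the contractile list, 1142 on the proliferative list and 79.1 over all reporters. These lists were written from general knowledge but with earlier results of these data known, and are described, not tested. Besides miR-143 and miR-145, the contractile list gave miR-10a, at 165, 173 and 172. None of its other members, miR-133a and miR-133b among them, was clear.

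The proliferative list was led by miR-21, miR-24 and miR-26a. Next were miR-221, at 5457, 5466 and 4916 (5280 ± 315, SD, n = 3), and miR-222, at 5243, 5633 and 4771 (5216 ± 431, SD, n = 3). This pair, made from 1 locus on chromosome X and known for lowering the cell cycle inhibitor p27, had overlapping ranges and stood at ranks 24 and 25 of the mean. Densities of miR-31 were 5034, 4609 and 3551 (4398 ± 763, SD, n = 3). Those of miR-146a, known for damping inflammatory signalling, were 1782, 1807 and 1545 (1711 ± 144, SD, n = 3). Neither miR-21* nor miR-221* nor miR-222* passed a limit, although their partners were among the brightest 25.

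The list of mesenchymal roles had 9 of 13 clear (69.2%, against 19.9% of all reporters), led by miR-125b-5p, miR-199a-3p and miR-214. With them were miR-22, at 4569, 4846 and 4161, and miR-152, at 1143, 1147 and 959. Of a short list for low oxygen and metabolism, miR-210, the best known miRNA induced by low oxygen, was at 401, 432 and 355, and miR-378 at 155, 133 and 151, and the other 3 of 5 did not pass. The list of miR-103, miR-107 and other miRNAs commonly found in most cells had 9 of 19 clear (47.4%, against the same 19.9%), with miR-16 the brightest at 4948, 4936 and 4539.

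**Figure D3:**
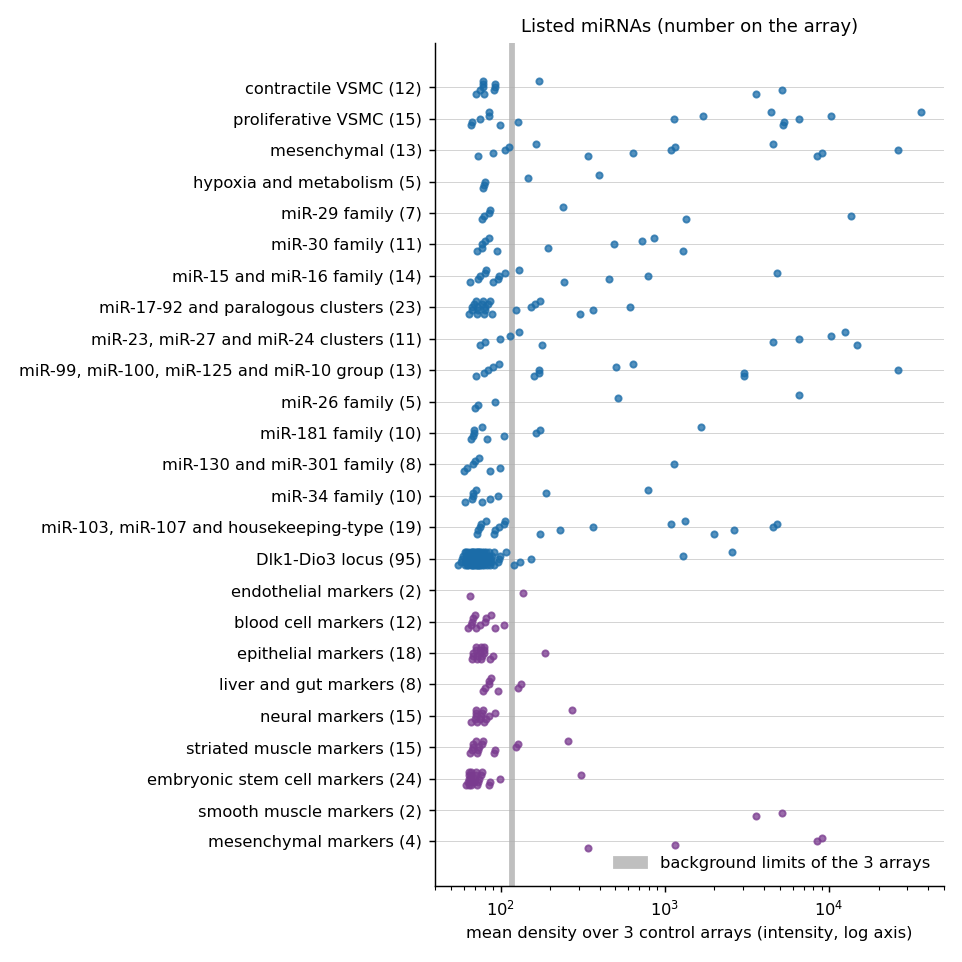
Mean density over the 3 control arrays (intensity, log axis) of each reporter of the named lists, one row for each list with its number of reporters, family and role lists in blue and cell type markers in purple; the grey band spans the limits of the 3 arrays. All 12 blood cell markers lie left of the band, and most of the 95 Dlk1-Dio3 reporters do too, while the smooth muscle and mesenchymal markers lie right of it.

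The large imprinted miRNA cluster between Dlk1 and Dio3, known for expression in embryo, brain and stem cells, was mostly dim. Of the 95 reporters on its list 3 were clear (3.16%, against 19.9% of all reporters), with a median of 72.4. These were miR-341* at 2933, 2864 and 1901, miR-494 at 1363, 1386 and 1122, and miR-758* with a mean of 154. All 3 were lowest on replicate 3. The list holds miR-342-3p, miR-345-3p and miR-345-5p, which passed on no array. Their hairpins were not placed within 10 kb of other hairpins of this locus, so their membership is unsure. The list also leaves out some members with late numbers. The gene table places miR-3072*, clear at a mean of 1297, and miR-3070b-3p, clear at 127, among hairpins of this locus, and 1 of the 2 hairpins of miR-1906, clear at 137, lies there too.

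Families were compared by their mature sequences. RefSeq sequences were found for 498 of the 1078 reporters (46.2%) and for 142 of the 214 clear ones (66.4%). Because fewer than 80% of the clear reporters, and 11 of the brightest 20, have a sequence, a check of base composition or length over sets of reporters is void. The matched reporters carry 429 different seeds. Of these, 118 had a clear member, 14 had at least 2 clear members and 8 had at least 3.

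Some families hold members of nearly the same sequence. The sequences shown here differ outside the seed by 1 base within each pair. They are shown because probes for near-identical miRNAs may bind either, which was not tested.
miR-29a: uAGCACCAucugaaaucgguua
miR-29c: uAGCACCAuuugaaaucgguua
miR-27b: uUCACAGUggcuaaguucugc
miR-27a: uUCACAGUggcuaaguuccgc
miR-30a: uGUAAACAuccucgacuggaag
miR-30e: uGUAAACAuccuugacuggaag
miR-100: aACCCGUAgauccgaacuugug
miR-99a: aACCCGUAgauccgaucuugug
miR-103: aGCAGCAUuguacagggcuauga
miR-107: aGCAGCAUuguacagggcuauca
Counting positions from 1 at the 5′ end and naming the base of the upper sequence of each pair first, the changes are C10U in the miR-29 pair, U19C in the miR-27 pair, C13U in the miR-30 pair, A16U in the pair of miR-100 and miR-99a, and G22C in the pair of miR-103 and miR-107.

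The miR-29 reporters were spread widely despite a shared seed. The density of miR-29a was given above with a mean of 13515, while miR-29c, 1 base away, was at 1438, 1438 and 1184, and miR-29b at 263, 237 and 220. The ranges did not overlap, and 3 of the 7 miR-29 reporters were clear (42.9%, against 19.9% of all reporters). No asterisk reporter of this family passed. By contrast the miR-27 pair lay close together, miR-27b at a mean of 6544 and miR-27a at 4286, 5145 and 4297. The reporters of miR-103, at 1312, 1407 and 1281, and miR-107, at 1056, 1089 and 1104, also lay close.

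In the family with the seed of miR-30, miR-30a was at 711, 821 and 637 and miR-30e at 204, 205 and 171. Over the wider miR-30 list, 5 of 11 reporters were clear (45.5%, against 19.9% of all reporters). Each was the named arm without an asterisk, with miR-30c the brightest at a mean of 1294. The group of miR-10, miR-99, miR-100 and miR-125 had 8 of 13 clear (61.5%, against the same 19.9%). In it miR-125a-5p was at 2637, 3427 and 3039 and miR-99b at 3229, 3246 and 2585, while miR-100 was at 641, 707 and 568 and miR-99a at 495, 583 and 431. The Hox cluster miRNAs miR-10a and miR-10b, which differ by U12A with miR-10a named first, were at means of 170 and 159.

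The growth-restraining miR-15 and miR-16 family had 5 of 14 clear (35.7%, against 19.9% of all reporters). Its brightest member, miR-16, had a mean of 4808, whereas miR-195, which differs from miR-16 by G10A and U11G, was at 259, 248 and 221. Between them lay miR-15b at 788 and miR-15a at 456. The miR-17-92 cluster and its paralogs, known for promoting cell division, had 7 of 23 clear (30.4%, against 19.9% of all reporters). All 7 were modest in brightness. They ran from miR-25 at a mean of 617 through miR-93 at 366 and miR-106b at 306 to miR-92a at 173, miR-20a at 162, miR-17 at 153 and miR-19b at 125.

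Smaller families gave 1 to 3 clear members. In the miR-26 family, miR-26b was at 493, 606 and 455, differing from miR-26a by C11U and C21U. Of the miR-181 family, 3 of 10 were clear (30%, against 19.9% of all reporters), miR-181a at 1650, miR-181c at 173 and miR-181b at 164. The miR-130 and miR-301 family had 1 of 8 clear, miR-130a at 1176, 1260 and 991. The miR-34 family, targets of p53, had 2 of 10, miR-34a at 836, 817 and 701 and miR-34c* at a mean of 190. The shares of these last 2 families were near or below the background of 19.9%.

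For 393 hairpins, reporters for both arms were on the arrays. Neither arm was clear for 268 of them, the first arm alone (without an asterisk, or 5p) for 85, the second arm alone for 27, and both for 13. Reporters whose name carries an asterisk were clear for 27 of 320 (8.44%), against 187 of 758 for the rest (24.7%). The asterisk names were thus mostly dim, with named exceptions.

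Exceptions where the asterisk arm alone passed included some of the brightest reporters. The miR-149* density was 15574 or more on every array, while that of miR-149 was 106, 113 and 96.8, below each limit. The sequence of miR-149* was shown among the leading reporters, and most of its bases are G. From the Dlk1-Dio3 cluster, miR-341* was clear and miR-341 was not, at a mean of 98.6. A further case, chosen after its values were seen, was the cartilage miRNA miR-140*, at 1046, 1317 and 1258, against 71.7, 93.4 and 67.1 for miR-140. The name miR-140* stands for the 3′ arm, which is now called miR-140-3p.

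Both arms were clear for 13 of the hairpins paired by name, and in 7 of these the second arm was brighter on all 3 arrays. Outside this pairing, miR-24-2* was clear at a mean of 177, as was miR-24 from the same hairpin. These 13 were the hairpins of miR-23a, miR-151, miR-346, miR-466f, miR-466i, miR-466m, miR-574, miR-199a, miR-125a, miR-669c, miR-669f, miR-328 and miR-22. Densities of miR-199a-5p were 1181, 1194 and 1080, with miR-199a-3p between 8281 and 9368. Those of miR-574-5p were 2635, 2412 and 1854 and those of miR-574-3p were 2938, 2767 and 1899. On the other side, miR-23a* reached 122, 148 and 121 and miR-22* reached 159, 177 and 152, just above the limits, with bright partners. The order of arms within a hairpin describes a pair of probes and not the numbers of the strands.

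**Figure D4:**
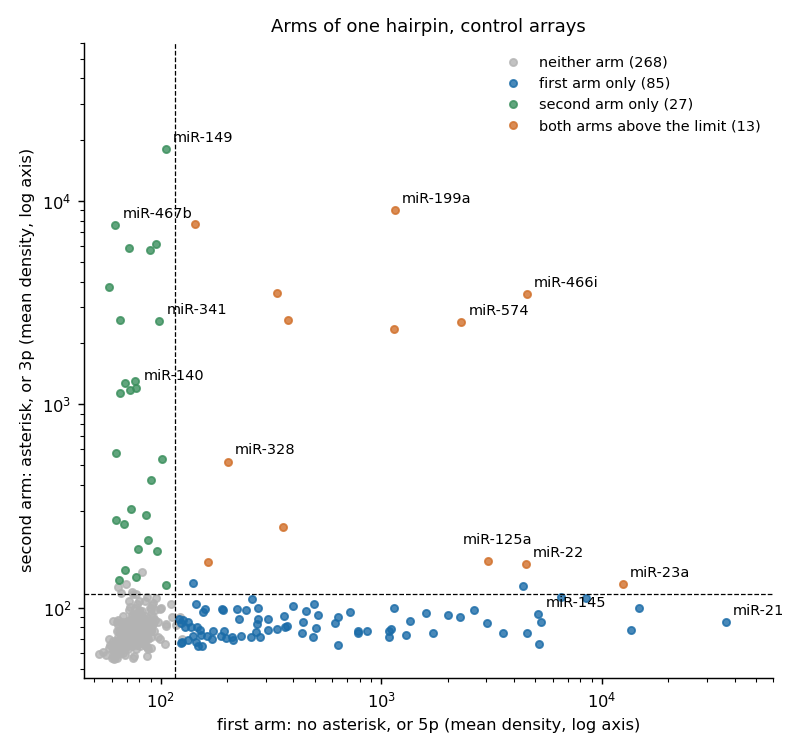
Mean density over the 3 control arrays of the second arm (asterisk or 3p, vertical log axis) against the first arm (no asterisk or 5p, horizontal log axis) for 393 hairpins paired by name, with dashed lines at the mean background limit. Hairpins with the first arm alone clear (85) lie along the bottom, those with the second arm alone clear (27) along the left, and the 13 with both clear in the upper right.

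Bright reporters included many of the repeat-rich miRNAs of miR-297, miR-466, miR-467 and miR-669, a group chosen after its values were seen. Most of them come from 1 cluster inside the gene Sfmbt2 on chromosome 2. Of 72 such reporters 29 were clear (40.3%, against 19.9% of all reporters), and among them 17 of 30 with an asterisk or 3p in the name (56.7%) and 12 of 42 without (28.6%). Together they held 16.7%, 16.0% and 15.6% of the net density on replicates 1, 2 and 3. Sequences are shown for 2 members, because the repeats may be read by probes of many. Both run largely in alternating bases. Neither is from the Sfmbt2 cluster, since miR-466i lies inside the span of Cdk13 and miR-467f inside that of Fxr2.
miR-466i-3p: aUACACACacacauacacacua
miR-467f: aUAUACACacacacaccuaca
The brightest was miR-466f-3p at 8926, 7603 and 6570, followed by miR-467b* at 7718, 8835 and 6278 and miR-466h-3p at 6949, 6202 and 5279. For miR-466i both arms were bright, the 5p reporter at 5184, 4672 and 3869 and the 3p reporter at 3929, 3565 and 2969. Neither printed sequence contains a G. Among other clear members of the group, G made up 40% of miR-669n, 34.8% of miR-466j, 15% of miR-466q and 0% of miR-467g.

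The gene table of GRCm38.p6, used only for names and neighbours, placed hairpins for 1045 reporters, of which 208 were clear (19.9%). Reporters inside the span of a protein-coding gene were clear for 139 of 618 (22.5%), and those outside for 69 of 427 (16.2%). Reporters with another miRNA hairpin within 10 kb were clear for 85 of 466 (18.2%), and lone ones for 123 of 579 (21.2%). Of the 60 reporters inside Sfmbt2, 22 were clear (36.7%). The cluster of Mir23a, Mir27a, Mir24-2 and Mir3074-2 had 6 of 8 reporters clear. That of Mir23b, Mir27b, Mir24-1 and Mir3074-1 had 4 of 8, with miR-3074-5p clear in both. That of Mir99b and Mir125a had 3 of 4. A mature miRNA made from more than 1 locus, such as miR-24, counts under each.

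Numbers in miRNA names follow the order of discovery, and late numbers include entries with little support. Reporters numbered up to 500 were clear for 126 of 571 (22.1%), those above 500 and up to 1000 for 32 of 202 (15.8%), those above 1000 and up to 3000 for 22 of 123 (17.9%) and those over 3000 for 34 of 182 (18.7%). The brightest 20 held 14, 1, 0 and 5 of these classes. The 5 late-numbered ones were miR-5126, miR-3960, miR-5107, miR-5109 and miR-5112, whose densities lay among those of the miRNAs best known from VSMCs.

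The 3 cultures agreed closely in the ranking of clear reporters. Across the 214, Pearson's r of log2 net density was 0.995 between replicates 1 and 2, 0.994 between 1 and 3, and 0.997 between 2 and 3, and Spearman's rho was 0.990, 0.987 and 0.993. Reporters are not independent replicates, and the arrays share the same probes. Among the 821 reporters that never passed, rho was still 0.775, 0.746 and 0.769, so dim reporters held a shared order too.

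To compare cultures, each array was shifted on the log2 scale by its median difference from the mean array, since replicates 1, 2 and 3 stood at 1.06, 1.07 and 0.883 times that mean. The SD over cultures of log2 net density then had a median of 0.12 (quartiles 0.07 and 0.18). The highest and lowest cultures differed by a median of 1.17-fold. For 126 of 214 reporters (58.9%) the difference was under 1.2-fold, for 17 it was over 1.5-fold and for 0 over 2-fold, with 1.90-fold the largest. Without replicate 1 the median SD was 0.077. That value is from SDs over 2 arrays in place of 3, so its drop cannot be credited to replicate 1 alone.

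The spread was largest for dim reporters. Those with a mean density under 200 (61 reporters) had a median SD of 0.20, and the classes from 200 to 500, 500 to 2000, 2000 to 10000 and over 10000 had 0.10, 0.09, 0.10 and 0.12. The standard deviation deposited within an array, as a percent of the density, had a median of 12.4% in the dimmest class and 1.78% in the brightest, so dim reporters also scattered more within an array. What the within-array value covers is not stated, and it leaves out differences between labellings and hybridizations.

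**Figure D5:**
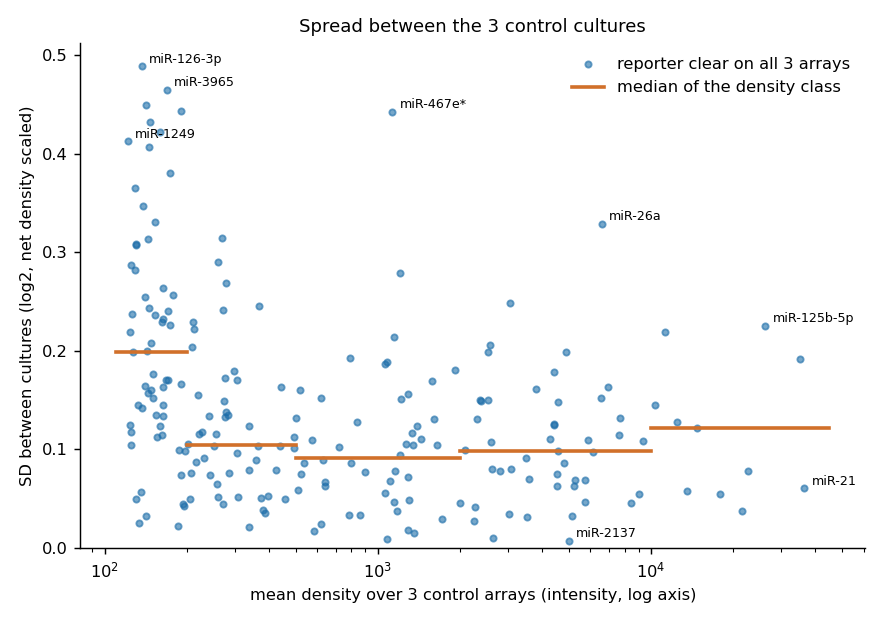
SD over the 3 control cultures of log2 net density after scaling (vertical axis) against mean density (intensity, log axis) for the 214 clear reporters, with orange lines at the median of each density class. The scatter is widest under 200, where the median is 0.20, and miR-467e* and miR-26a stand above other reporters of similar brightness.

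The reporters with the largest spread were miR-126-3p (0.49), miR-3965 (0.46), miR-466j (0.45), miR-467e* (0.44), miR-34c* (0.44), miR-378 (0.43), miR-365 (0.42) and miR-1249 (0.41). All but miR-467e* had a mean density under 200, where a small change in density is a large change in net density. The exception, miR-467e*, was at 1565, 1075 and 754, well above the limits and highest on replicate 1. The smallest spreads, 0.007 to 0.02, were those of miR-2137, miR-191, miR-152, miR-29c, miR-494, miR-1195, miR-669f-5p and miR-5122. Of these, miR-191 is often used as a reference miRNA, and its densities were 2796, 2831 and 2310.

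Members of some families deviated together between cultures. After the shift, replicate 1 was the lowest of the 3 for 7 of the 7 clear miR-23, miR-24 and miR-27 reporters, and replicate 2 was the highest for 6. Their median deviations were -0.17, 0.11 and 0.07 (log2) on replicates 1, 2 and 3. Of the 29 clear reporters of the miR-297, miR-466, miR-467 and miR-669 group, by contrast, 17 were highest on replicate 1, 11 on replicate 2 and 1 on replicate 3. Over all 214 clear reporters the counts were 85, 63 and 66. The 2 groups thus leaned to different cultures.

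Some other groups leaned to 1 culture as well, and others did not. Replicate 3 was highest for 7 of the 9 clear reporters on the list of mesenchymal roles, for 7 of the 9 housekeeping-type reporters and for 3 of 3 of the miR-181 family. The mesenchymal and housekeeping-type lists share miR-22. Replicate 1 was highest for all 3 clear miR-29 reporters, miR-29c by only 0.018, and replicate 2 for 4 of 5 miR-30 reporters. On the proliferative list replicates 1, 2 and 3 were highest for 1, 3 and 4 of 8 clear reporters. In the group of miR-10, miR-99, miR-100 and miR-125 they were highest for 2, 3 and 3 of 8. Both miR-125 reporters of the 5p arm were lowest on replicate 1 and highest on replicate 3, miR-125b-5p by -0.22 and 0.23 and miR-125a-5p by -0.28 and 0.19. Probes of close sequence may share signal, which was not tested, and no label describes a difference between the 3 cultures.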

How the data were processed

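For every array the authors deposited linear intensities, a median density with its standard deviation for each reporter, per the file headers. They also deposited a table of processed intensities, used only as an alternative, in which every column belonged to a labelled sample. Per the labels' protocols, total RNA was tailed, joined to a tag and stained with Cy5, so each array has 1 colour. The scanner, software and name release were not given in the sources used here. The number of arrays, 3, limits the precision, as does signal over background for dim reporters.

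Peaks and limits were found on log2 densities by a kernel density estimate in Python 3.11.15 with scipy 1.17.1, and the alternatives used limma 3.58.1 in R 4.3.3 (normexp with offset 50, quantile). Calculations were checked on simulated data. The members, lists and groups were chosen with earlier results of these data known. Named were the 20 brightest reporters, clear list members, the brightest member of a list with none clear, the 8 largest and 8 smallest spreads, the 5 nearest the limit on each side, hairpins with both arms clear and the brightest member of each seed family with at least 3 clear members. Other limits, corrections, scalings and leaving out each array were tried.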

Additional observations from a re-analysis of the deposited data

How the results depend on the processing

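The count of clear reporters, 214, ran from 168 to 261 under other limits and peak searches, was 232 with 2 of 3 arrays required and 216 to 228 without each replicate in turn, and became 369 when a normexp-corrected density of at least 32 was required instead. The share of net density in the brightest 20, 59.2%, was 57.6% without background subtraction, 58.9% in the deposited processed table and 58.7% with normexp. The median SD between cultures, 0.12, was 0.19 without scaling, 0.084 after quantile normalization and 0.089 without subtraction. With each replicate left out it was 0.077 to 0.11, the lowest without replicate 1, each SD then being over 2 arrays. The correlation between arrays, 0.995, was 0.994 over all reporters and 0.998 in the processed table. The cause of these shifts was not tested. Of the ranks of the 119 named reporters, 108 moved by less than the spread in the processed table and 117 after quantile normalization. At 5 SD the endothelial and liver and gut lists had 0 clear, by the limit's own construction. Alternatives for base composition and length were not run, since too few reporters had a sequence. No paired analysis was possible because only 1 group of cultures is described. Signal over background limits all statements on dim reporters: below the limit a density gives only a bound.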
